A study of Mus musculus with 4 samples.

Results

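Mitochondrial fatty acid oxidation and ketone body formation were followed through 30 genes in liver RNA of mice without Ilrun and of wild-type (WT) mice. They were taken by name from the 4 scanner files: a probe counted where its gene name, or the current symbol of its accession, was that of a member, so that Eci1 was found under its older name Dci. Each member had at least 1 probe, 40 probes in all, among 31709 genes and 39429 probes on the array. The tested animals were male C57BL/6 mice of genotype IlrunKO, a deletion in the whole body, and the animals they were set against were male C57BL/6 WT mice. Both genotypes ate chow and had been fasted for 4 h when the livers were frozen, and no other treatment or allele is named in the labels. Each of 4 two-colour Agilent arrays carried 500 ng of labelled RNA per sample, from 1 IlrunKO and 1 WT liver, with IlrunKO in Cy5 on arrays 1 and 2 and in Cy3 on arrays 3 and 4. The labels call the samples biological replicates, 4 per genotype; they state neither the age of the mice nor whether a sample was 1 mouse or a pool.

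Mitochondria break fatty acids down in a fixed order of steps. An acyl-CoA synthetase activates the acid, the carnitine shuttle carries a long acyl chain through the inner membrane, and a repeated spiral of dehydrogenation, hydration, a further dehydrogenation and thiolysis releases acetyl-CoA. Electrons of the first dehydrogenation pass through the electron transfer flavoprotein to ubiquinone. In the fasted liver much of the acetyl-CoA becomes ketone bodies, which leave the hepatocyte through monocarboxylate transporters, and the nuclear receptor PPARalpha is the best known inducer of these genes.

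Ilrun itself (D17Wsu92e in the files) checked the labels, with a log2 ratio of IlrunKO over WT of -4.21 ± 0.24 (SD, n = 4 arrays) and ratios below -4 on every array at the brighter of its probes. At the dimmer Ilrun probe, well above background in 1 of 4 IlrunKO livers, the log2 ratio was -2.15. Of 8 channels, each had between 60.0% and 67.3% of probes well above background. Arrays shared 1 slide and 1 scan. The 10 hepatocyte markers examined, among them Alb and Ttr, were well above background in all 8 channels, as were all 30 members. Muscle genes, which use the same oxidation enzymes, were checked as a possible admixture: of 5 muscle markers (Ckm, Acta1, Myh1, Myh4 and Actn3) 4 were above background in no channel and none passed the filter. Of 9 adipocyte markers 6 were tested, with a median ratio of 0.87, and 2 rose: Cfd (log2 ratio 3.82, adjusted p = 0.0471) and Adrb3 (1.04, adjusted p = 0.0304). Cidec stood at 1.53, Pparg at 0.69, Retn at 0.14 and Fabp4 at -0.11, none of them past the threshold. The 3 that were not tested, Adipoq, Lep and Plin1, were above background in no channel. The part of adipocyte RNA in the members' values was not tested. In whole liver, fewer cells of a type and less RNA per cell cannot be told apart.

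No member passed the test between the genotypes. Values are log2 ratios of IlrunKO over WT, and a gene is said to have risen or fallen where limma gave it a two-sided adjusted p under 0.05 over all 19673 genes tested. At that threshold 0 of 30 members passed, against 1.37% of all genes tested (0.712% higher and 0.656% lower in IlrunKO). At an unadjusted p under 0.05 there were 4 members, Acsl5, Acsm3, Etfdh and Slc16a6, which is a smaller share than the 20.5% of all genes. The fitted ratios of 16 members lay above 0 and those of 14 below, with a median of 0.0076, beside a median of -0.0014 over all genes tested. At an adjusted p under 0.10, 2 members were counted, Acsm3 and Slc16a6, both higher in IlrunKO, against 5.68% of all genes (3.03% higher in IlrunKO). Slc16a6 was the only 1 of 30 members with a fitted ratio beyond 1.5-fold, against 1.72% of all genes.

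The intervals of most members stayed within 1.5-fold, but they were wider than those of the typical gene. For 26 of 30 members the 95% confidence interval of the fitted ratio, not adjusted for the number of genes, lay within 1.5-fold of no change in either direction, and for 29 of 30 within 2-fold. The median interval of a member reached 0.226 on the log2 scale to either side of the estimate, beside 0.147 over all genes tested. Among all genes tested, 93.1% had an interval within 1.5-fold. The intervals of Acsl5, Acsm3, Acot1 and Slc16a6 reached beyond 1.5-fold, and that of Slc16a6 also beyond 2-fold.

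**Figure D1:**
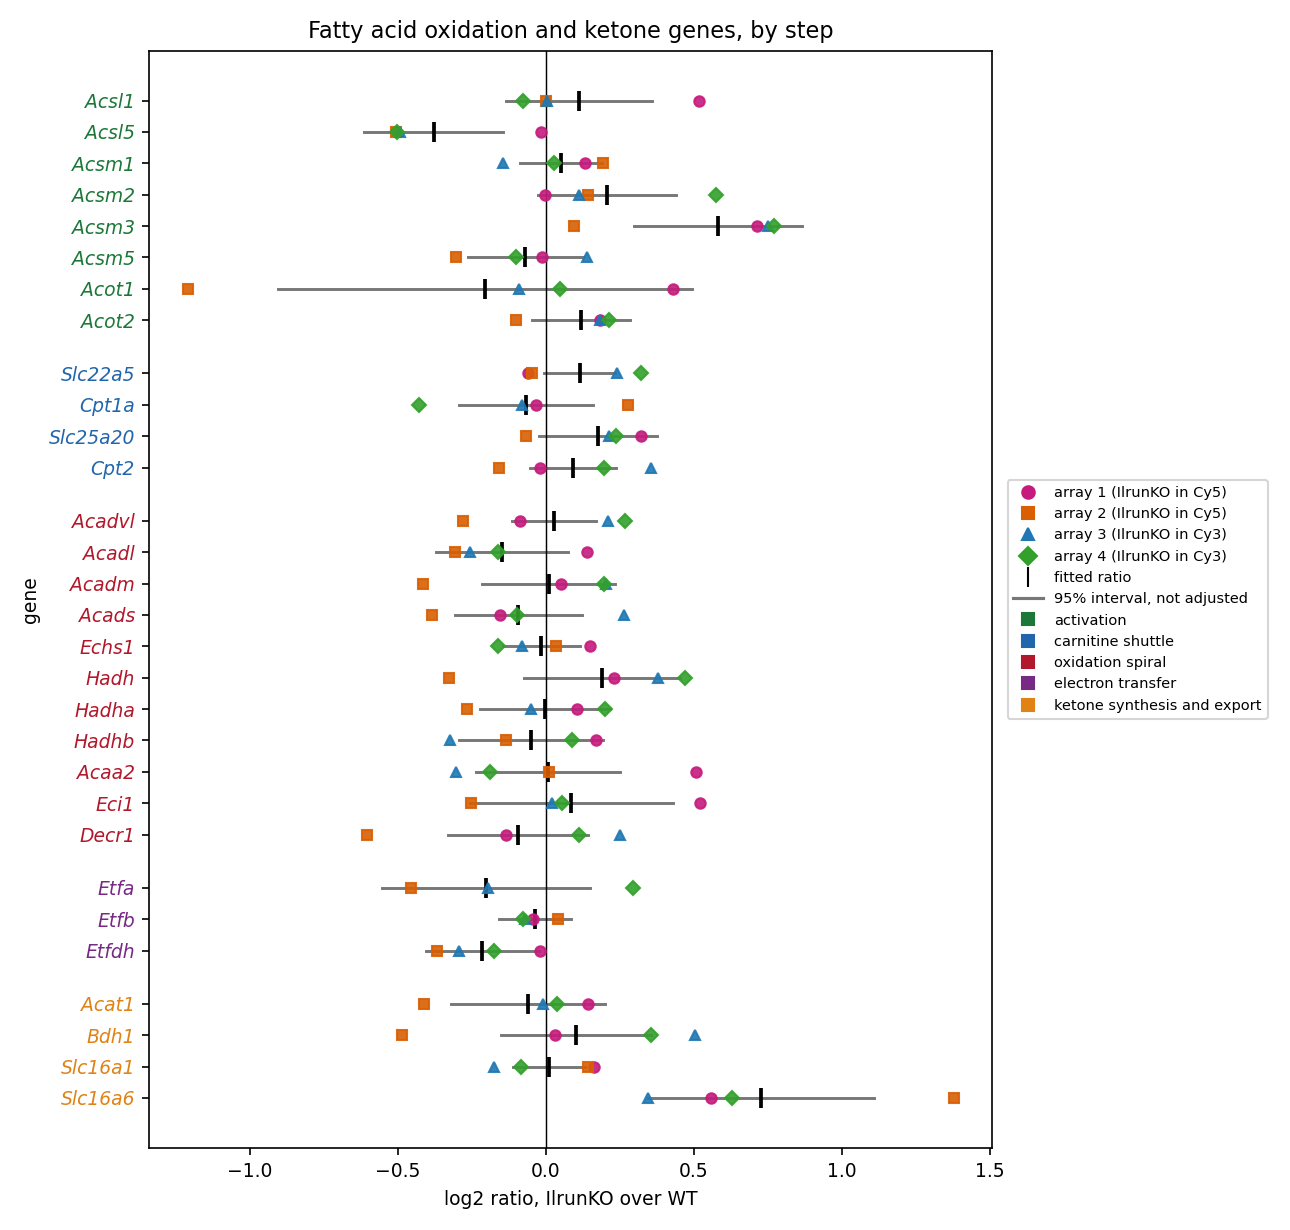
Log2 ratio of IlrunKO over WT (x axis) of the 30 members (y axis, coloured by step). Symbols are the 4 arrays, black ticks the fitted ratios and grey lines their unadjusted 95% intervals. Acsm3 and Slc16a6 lie above 0 and Acsl5 and Etfdh below 0 on 4 of 4 arrays; the other members have arrays on both sides of 0, and array 1 of Etfa is missing.

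**Figure D2:**
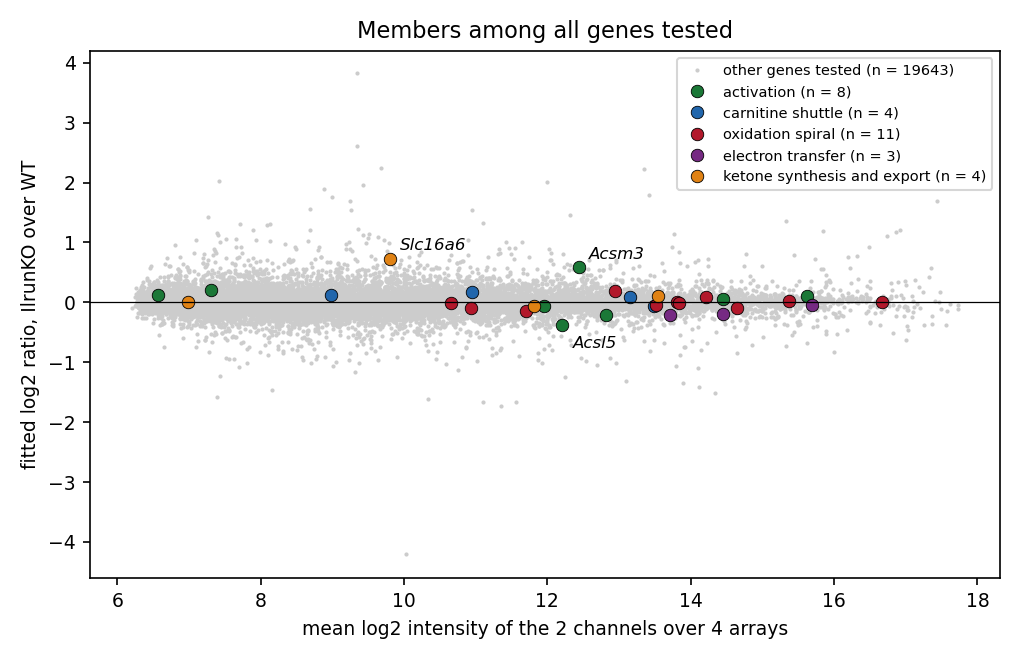
Fitted log2 ratio of IlrunKO over WT (y axis) against mean log2 intensity (x axis) for 19643 other genes (grey) and the 30 members (coloured by step). All members but Slc16a6 lie within 1.5-fold of no change, and the lowest grey point is Ilrun at -4.21.

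Sequences are shown for Acsm3, Acsl5 and Slc16a6, the members whose ratios lay farthest from 0, since their probes are the places in the transcripts that the statements below rest on. All are from the scanner files, written 5′ to 3′ with positions on mm9, the build that the files name, and with no letter singled out in capitals because the whole probe hybridises. The dimmer Acsm3 probe and the only Acsl5 probe are given whole, and the brighter Acsm3 probe and each Slc16a6 probe by their first 30 bases. The levels and fits below come from the brighter probe of a gene, which stands first. No exon, intron or UTR is named for a probe, since no mm9 annotation was used here.
Acsm3, A_51_P487175, chr7:126928021-126928080, plus strand: atcattattgaatccttctgcattcatgtc
Acsm3, A_55_P1972104, chr7:126927796-126927855, plus strand: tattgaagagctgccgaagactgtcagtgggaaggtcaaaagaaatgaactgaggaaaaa
Acsl5, A_52_P593037, chr19:55368743-55369331, plus strand: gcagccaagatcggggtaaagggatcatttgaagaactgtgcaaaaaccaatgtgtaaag
Slc16a6, A_55_P2055537, chr11:109314056-109314115, minus strand: actatattataaagtgacatccagcccaag
Slc16a6, A_52_P579933, chr11:109312371-109312429, minus strand: ttgtactacgaatgttcgagacgatttaat
The Acsl5 probe has 60 bases but its ends lie 589 bases apart on the chromosome, and the Eci1 probe spans 1398 bases, so each covers more of the chromosome than its own length.

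Activation of fatty acids held the members farthest from 0 on the side of the enzymes. The step had 8 members, 5 with a ratio above 0 and 3 with a ratio below; its median was 0.08, and none passed. Acsm3, which encodes a medium-chain acyl-CoA synthetase of the mitochondrial matrix, had normalised log2 intensities of 12.67, 12.40, 12.92 and 12.95 in the IlrunKO livers of arrays 1 to 4, against 11.96, 12.31, 12.17 and 12.18 in the WT livers. All IlrunKO values were above all WT values, the IlrunKO liver of array 2 being the closest to them. The fitted ratio was 0.58 ± 0.33 (SD, n = 4), with an unadjusted interval from 0.30 to 0.87 and an adjusted p of 0.0844. The ratios were 0.71, 0.09, 0.75 and 0.77 on arrays 1 to 4, so 3 arrays agreed closely and array 2 stood apart. Without array 2 the ratio was 0.74. Over 15 alternatives it ran from 0.43 to 0.74, and no fit on all 4 arrays gave an adjusted p under 0.05. The dimmer Acsm3 probe had ratios of 0.64, 0.01, 0.79 and 0.70, so the shape over the arrays was the same at both sites.

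Acsl5, a long-chain acyl-CoA synthetase, had the lowest ratio of the members. Its log2 intensities were 12.15, 11.83, 12.01 and 12.08 in IlrunKO livers, against 12.16, 12.34, 12.50 and 12.59 in WT livers. The genotypes did not overlap, although the gap between the IlrunKO and the WT liver of array 1 was only -0.02. The fitted ratio was -0.38 ± 0.24 (SD, n = 4; adjusted p = 0.121). On arrays 2, 3 and 4 it was -0.51, -0.49 and -0.50, and without array 1 the fitted ratio was -0.50. Over its 15 alternatives the ratio ran from -0.51 to -0.26, and no fit on all 4 arrays gave an adjusted p under 0.05. Acsl1, the main long-chain synthetase of hepatocytes, stood at 0.11 (adjusted p = 0.578), with 0.52 on array 1 and between -0.08 and 0.00 on the others. A dimmer Acsl1 probe stood at 0.01, with 0.29 on array 1 and between -0.17 and -0.02 on the others.

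The probes of 4 medium-chain synthetase genes lie near each other on chromosome 7. They run from the Acsm5 probe, which starts at 126686414, to the Acsm3 probe, which ends at 126928080. Acsm3 was the only gene among these 4 with the same sign on 4 of 4 arrays. Acsm1 stood at 0.05, Acsm2 at 0.21 and Acsm5 at -0.07, with adjusted p from 0.290 for Acsm2 to 0.666 for Acsm5. Acsm2 was close to 0 on array 1 and at 0.57 on array 4. A further Acsm1 probe gave 0.06; it read -0.20 and -0.14 where IlrunKO was in Cy5, and 0.30 and 0.29 where it was in Cy3. Members of this family resemble each other in sequence, and cross-hybridisation between them was not tested.

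Thioesterases undo activation by splitting acyl-CoA into free acid and CoA. Acot1, the cytosolic enzyme, had the widest spread of all members: its ratios were 0.43, -1.21, -0.09 and 0.05 on arrays 1 to 4, and the fit gave -0.21 ± 0.70 (SD, n = 4; adjusted p = 0.728). Array 2 alone set its sign. Without array 2 the ratio was 0.20 and without array 1 it was -0.62. In the latter fit array 2 was the only array with IlrunKO in Cy5 and was fitted exactly. Acot2, its mitochondrial neighbour on chromosome 12, stood at 0.12 ± 0.15 (adjusted p = 0.374), with -0.10 on array 2 and between 0.18 and 0.21 on the others. The pair are closely similar copies, and mixing of their signals was not tested.

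**Figure D3:**
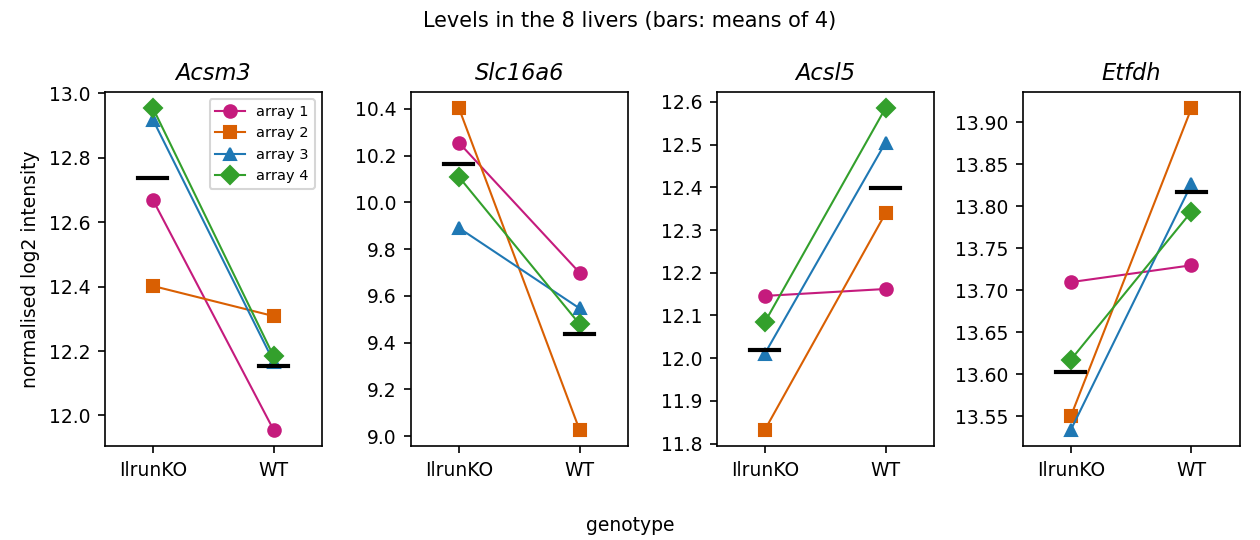
Normalised log2 intensity (y axis) of Acsm3, Slc16a6, Acsl5 and Etfdh in the 4 IlrunKO livers (left) and the 4 WT livers (right) of each panel. Lines join the livers of 1 array and bars are means of 4; the genotypes do not overlap in any of the panels, and array 1 is nearly flat for Acsl5 and Etfdh as is array 2 for Acsm3.

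The carnitine shuttle brings long acyl chains into the matrix. None of its 4 members passed or had an unadjusted p under 0.05, and their fitted ratios ran from -0.07 to 0.18. Slc25a20, the carrier that exchanges acylcarnitine for carnitine across the inner membrane, had the highest at 0.18 ± 0.17 (SD, n = 4; adjusted p = 0.290), from ratios of 0.32, -0.07, 0.21 and 0.24. Cpt1a encodes the outer-membrane transferase that is the gate for long-chain acids, and its brighter probe (10 spots per array) stood at -0.07 ± 0.29 (adjusted p = 0.728). The livers disagreed on Cpt1a, with 0.28 on array 2 and -0.43 on array 4. A dimmer Cpt1a probe gave -0.10, with 0.40 on array 3 and -0.39 on array 1, so the probes did not follow each other over the arrays.

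Slc22a5, the carnitine importer of the cell surface, and Cpt2, which restores acyl-CoA in the matrix, differed between the dye orientations. With IlrunKO in Cy5, Slc22a5 read -0.06 and -0.05, and with IlrunKO in Cy3 it read 0.24 and 0.32. Cpt2 read -0.02 and -0.16 in the Cy5 orientation, and 0.35 and 0.19 in the Cy3 orientation. With the dye term in the fit they stood at 0.11 (adjusted p = 0.263) and 0.09 (adjusted p = 0.429). Dye and pair of mice cannot be told apart here, since each pair was hybridised in 1 orientation. A further Cpt2 probe stood at 0.04 and ran the other way. It read 0.14 and 0.27 in the Cy5 orientation, and 0.05 and -0.30 in the Cy3 orientation.

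The oxidation spiral was split, 5 of its 11 members having ratios above 0 and 6 below, around a median of -0.0035 and over a range from -0.15 for Acadl to 0.19 for Hadh. None passed, none had an unadjusted p under 0.05, and none had the same sign on 4 of 4 arrays. The acyl-CoA dehydrogenases for very long, long, medium and short chains, Acadvl, Acadl, Acadm and Acads, stood at 0.03, -0.15, 0.01 and -0.09, with adjusted p from 0.413 for Acadl to 0.970 for Acadm. All of them were lowest on array 2, where they read -0.28, -0.31, -0.41 and -0.39. Acadm encodes the medium-chain enzyme, and its interval ran from -0.22 to 0.23.

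The later steps of the spiral followed the same test result, with no pass. Echs1, the hydratase for short chains, stood at -0.02 with the narrowest interval of this step (-0.14 to 0.11). Hadh, the dehydrogenase for shorter hydroxyacyl chains, stood at 0.19 ± 0.36, above 0 on arrays 1, 3 and 4 (0.23, 0.38 and 0.47) and at -0.33 on array 2. Hadha and Hadhb, the subunits of the trifunctional protein, stood at -0.0035 and -0.05. The thiolase gene Acaa2 (10 spots per array) stood at 0.01, although its ratios were 0.51, 0.01, -0.30 and -0.19 on arrays 1 to 4. Eci1 and Decr1, which prepare unsaturated chains for the spiral, stood at 0.09 and -0.09. A dimmer Decr1 probe lay at 0.17 with 0.49 on array 1, while the brighter Decr1 probe read -0.13 there, so the Decr1 probes disagreed in sign.

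Electron transfer was the only step with all its members below 0. Etfdh, which hands the electrons to ubiquinone, had log2 intensities of 13.71, 13.55, 13.53 and 13.62 in IlrunKO livers, against 13.73, 13.92, 13.83 and 13.79 in WT livers. The genotypes did not overlap, and array 1 showed the smallest difference. The ratios were -0.02, -0.37, -0.29 and -0.18, with a fitted value of -0.21 ± 0.15 (SD, n = 4; adjusted p = 0.208). Etfb, the beta subunit of the flavoprotein, stood at -0.04 ± 0.05 (adjusted p = 0.710), the smallest spread of any member. For the alpha subunit gene Etfa the brighter probe carried an outlier mark on array 1 and was fitted on 3 arrays (-0.45, -0.20 and 0.29 on arrays 2 to 4), which gave -0.20 (adjusted p = 0.452). The other Etfa probe, measured on all 4 arrays, gave -0.14.

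Ketone synthesis and export held the highest ratio of the members. Slc16a6 encodes a monocarboxylate transporter of the plasma membrane, known from zebrafish to carry ketone bodies out of hepatocytes. Its log2 intensities were 10.26, 10.40, 9.89 and 10.11 in IlrunKO livers, against 9.70, 9.03, 9.55 and 9.48 in WT livers, with no overlap. Array 2 held both the highest IlrunKO and the lowest WT value. The ratios were 0.56, 1.38, 0.34 and 0.63, and the fit gave 0.73 ± 0.45 (SD, n = 4), 1.65-fold higher in IlrunKO, with an adjusted p of 0.0936. Without array 1 it was 0.93. Over 15 alternatives the ratio ran from 0.48 to 0.93, and no fit on all 4 arrays gave an adjusted p under 0.05. The other Slc16a6 probe, dimmer and also printed above, was also above 0 on 4 of 4 arrays (0.11, 0.37, 0.12 and 0.35), with a fitted ratio of 0.24 (adjusted p = 0.166 over all probes).

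The other members of this step had ratios smaller than their SD. Slc16a1, the more general monocarboxylate transporter, stood at 0.01 ± 0.17 (adjusted p = 0.924). Acat1, the thiolase that condenses acetyl-CoA, stood at -0.06 ± 0.24 (adjusted p = 0.792). Bdh1, which turns acetoacetate into beta-hydroxybutyrate, had ratios of 0.03, -0.49, 0.50 and 0.36 and a fitted value of 0.10 ± 0.44 (adjusted p = 0.625). A neighbouring Bdh1 probe gave 0.14 with the same shape, whereas another probe, farther along the gene at 31458195 to 31458254 of chromosome 16, gave -0.12 and was below 0 on arrays 3 and 4 (-0.27 and -0.45). The Bdh1 probes thus disagreed in sign.

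Groups that did not overlap were seen in 4 of 30 members (Acsm3, Slc16a6, Acsl5 and Etfdh), against 8.97% of all genes tested. The same 4 members were the ones with the same sign on 4 of 4 arrays, against 23.2% of all genes tested. An exact sign-flip test over 4 arrays, two-sided, gave p = 0.125 for each of these members, the smallest value it can give, so it cannot reach 0.05 in this design.

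Members varied from array to array more than the typical gene, and mostly together. The median SD of a member over the arrays was 0.248, beside 0.148 over all genes tested and 0.196 over the 1667 other genes at least as bright as the median member. The median ratio of the members was 0.13, -0.21, 0.01 and 0.07 on arrays 1 to 4, while that of all genes stayed between -0.02 and 0.01. Of 29 members measured on all arrays, 18 had their lowest ratio on array 2, against 24.2% of all genes tested. These included 8 of 11 members of the spiral and 5 of 8 of activation, but not Slc16a6, which was highest there.

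**Figure D4:**
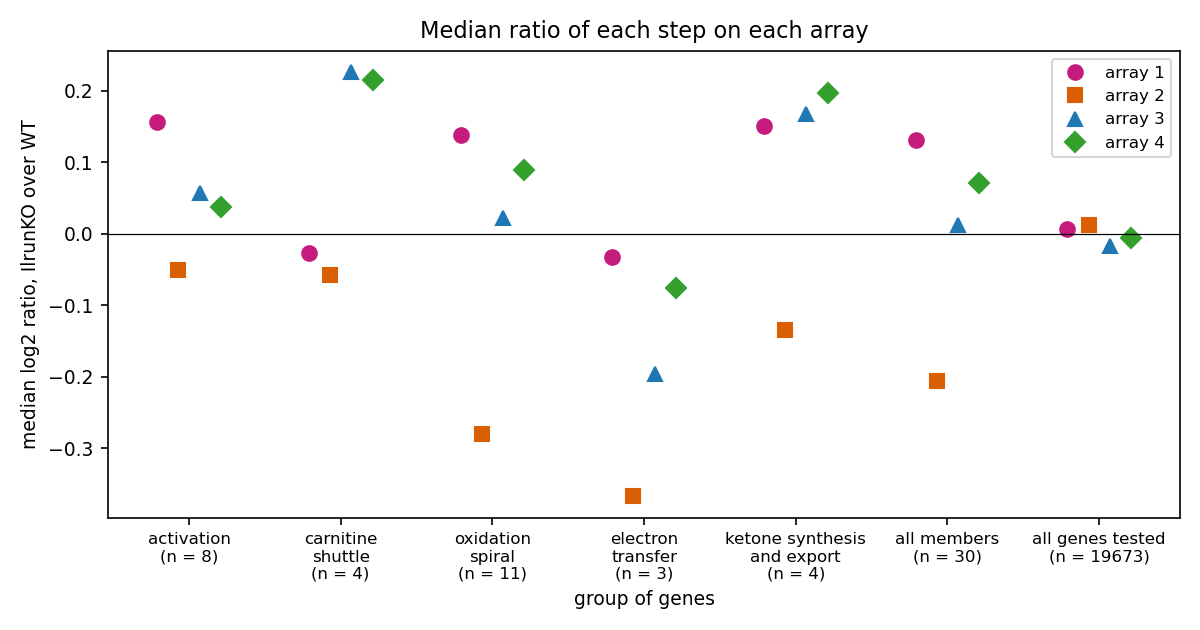
Median log2 ratio of IlrunKO over WT (y axis) of each step, of all members and of all genes tested (x axis, number of genes below the name), with 1 symbol per array. Array 2 is the lowest symbol in each of the 5 steps and for all members (-0.21), while all genes tested stay near 0; array 1 of electron transfer is the median of 2 genes.

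The low value of array 2 was seen in both of its livers. The IlrunKO liver of array 2 was the lowest of the 4 IlrunKO livers for 19 of 29 members, beside 5000 of 19566 genes, the median member standing at -0.16 relative to the IlrunKO mean on the log2 scale. The WT liver of array 2 was the highest of the 4 WT livers for 15 of 29 members, beside 4202 of 19566 genes. Array 1 stood apart in the other direction: its WT liver was the lowest of the 4 WT livers for 14 of 29 members, beside 5739 of 19566 genes. The median member stood at -0.07 relative to the WT mean on the log2 scale in that liver. On array 1, 12 of 29 members had their highest ratio (41.4%, beside 25.8% of all genes tested). Kupffer cell markers had their highest median on array 2 and their lowest on array 1. The median ratio of 10 of 10 listed markers was -0.26, 0.83, 0.58 and 0.58 on arrays 1 to 4. For the 10 hepatocyte markers the median was -0.12, 0.01, -0.45 and -0.41. All 10 Kupffer cell markers had fitted ratios above 0, and of the hepatocyte markers 9 lay below 0 and 1, Asgr1, above. An unadjusted p under 0.05 was seen for 4 Kupffer cell markers and for 9 of the hepatocyte list, against 20.5% of all genes tested. None passed. The 6 tested adipocyte markers had medians of 0.95, 0.44, 0.99 and 1.03, 5 of them being lowest on array 2, as most members were. All 8 stellate cell markers had ratios below 0, 7 with an unadjusted p under 0.05 and none past the threshold, and their medians were -0.29, -0.15, -0.22 and -0.32. The part of these markers in the members' values was not tested. Without array 2 the median member stood at 0.09, and without array 1 it stood at -0.04.

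Other genes of the pathway, a list of 40, were read from the same fit. Of these 36 were tested, 1 rose and 1 fell (0.712% and 0.656% of all genes did), and 21 lay above 0 and 15 below, with a median of 0.05. An unadjusted p under 0.05 was reached by 13 of them, against 20.5% of all genes. Fgf21, a hormone that the liver releases in fasting, fell to a signal not well above background in any IlrunKO liver. Its fitted log2 ratio was -0.74 (unadjusted interval -0.96 to -0.52, adjusted p = 0.0434), a size that is uncertain with IlrunKO signals so close to background. Its ratios were -0.86, -0.65, -0.53 and -0.93, all below 0. Fgf21 entered the test through the WT livers alone, and it was not tested where all 8 channels had to be well above background, so it supports nothing about the list. Bdh2, a cytosolic dehydrogenase related by name to Bdh1, rose with a log2 ratio of 0.37 ± 0.35 (SD, n = 4; adjusted p = 0.0496), with 0.71 and 0.62 where IlrunKO was in Cy5, and 0.05 and 0.08 where it was in Cy3. Bdh2 passed under 6 of 15 alternatives; it did not pass without the dye term (adjusted p = 0.275) or with any 1 array left out, and over the 15 alternatives its adjusted p ran from 0.0393 to 0.552. Fgf21 passed under 9 of 14 alternatives; it did not pass with median centring or with any 1 array left out, and its adjusted p over the 14 ran from 0.0184 to 0.199.

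The 6 genes of that list with the next smallest p did not pass. Acot7, an acyl-CoA thioesterase, stood at -0.27 (adjusted p = 0.0739), at 0.16 and 0.11 where IlrunKO was in Cy5, and at -0.67 on each array where it was in Cy3. The mitochondrial dehydrogenase gene Hsd17b10 stood at 0.33, the leucine-breakdown gene Ivd at 0.28 and Acad10, of the acyl-CoA dehydrogenase family, at 0.25, each above 0 on 4 of 4 arrays. Pank1, a kinase of CoA synthesis, stood at -0.26 and the monocarboxylate transporter gene Slc16a7 (D630004K10Rik in the files) at -0.44, both below 0 on 4 of 4 arrays. Adjusted p ran from 0.0739 for Acot7 to 0.111 for Pank1 among the 6.

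Promoters of 26 members were in the RefSeq table at hand (GRCm38.p6, 250 bases before to 50 after each start, 29 promoters in all), and were searched for the direct repeat that PPARalpha binds, AGGTCANAGGTCA, on both strands, overlaps allowed. No member promoter held it with 0 or 1 mismatch, against 0.0396% and 0.554% of all 32851 promoters. With up to 2 mismatches 3 of 29 did (10.3%), against 3.86% of all promoters. These 3 windows are shown 5′ to 3′ on the gene's strand, with the 13-base stretch that was compared in capitals, its 2 mismatched bases included.
Echs1, chr7:140116484-140116512, minus strand: gcccgctcAGGTCACGGGTCCacccctta
Etfa, chr9:55512300-55512328, minus strand: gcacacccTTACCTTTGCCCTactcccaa
Slc25a20, chr9:108662134-108662162, plus strand: ctgaatgtAGGTGAAAGGTCGgcggagcc
The Etfa match lies on the opposite strand to the gene. The ratios of these genes were -0.02, -0.20 and 0.18, which span both sides of 0, and a match of letters is a description of the sequence only.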

How the data were processed

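RNA was labelled and hybridised in pairs to 4 two-colour arrays. Per the file headers, Agilent Feature Extraction 10.10.1.1 wrote the scanner files that the authors deposited. These deposited files hold each spot's mean and local background intensity and a background-subtracted, dye-normalised intensity. A deposited log10 value gives Cy5 relative to Cy3. The authors also deposited a table of log2 ratios, made with limma per the submitters' processing notes. Across spots well above background in both channels it ran with the scanner ratio on arrays 1 and 2 (r = 0.956 and 0.943) and against it on arrays 3 and 4 (r = -0.943 and -0.952), so it holds IlrunKO over WT, with column medians of -0.039, -0.043, 0.038 and 0.035.

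Ratios were recomputed with limma 3.58.1 in R 4.3.3: normexp (offset 50), array-wise loess giving no weight to 1377 control spots, outlier spots left out (224 to 381 per array, none saturated), spots of a probe averaged, brightest probe per gene. Levels per channel were scaled by Aquantile. Names came from RefSeq accessions for 26055 probes, from symbols or synonyms for 4125, and from the files for 9249. A gene was kept if 3 or more of its 4 channels in either genotype were well above background. lmFit and eBayes used a dye and a genotype term (2 residual degrees of freedom, prior 2.83), with Benjamini-Hochberg adjustment over 19673 genes. Other probes come from a fit over 24377 probes. Precision is limited by how few arrays there are. The fit was tested on simulated data. Members, lists and tests were chosen with earlier results of these data known. Every member and probe is named; of the 40 other genes, those that passed and the 6 with the next smallest p.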

Additional observations from a re-analysis of the deposited data

Results flagged for a closer look

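Of 65 groups of 4 values examined, 7 had a highest or lowest value whose gap to its nearest neighbour took up more of the range than chance gives in about 1 group in 20. Acsl1 had 0.52 on array 1 against -0.08 to 0.00 on the others, and Acsl5 had -0.016 on array 1 against -0.51 to -0.49. The dimmer Decr1 probe had 0.49 on array 1, with the rest between 0.05 and 0.08. Array 2 stood apart for the brighter Acsm3 probe (0.093 against 0.71 to 0.77), for Acot2 (-0.10 against 0.18 to 0.21) and for the median of ketone synthesis and export (-0.13 against 0.15 to 0.20). Ilrun had -4.56 on array 4, with the rest between -4.12 and -4.04. The cause of these values was not tested.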

How the results depend on the processing

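Over 15 alternatives with a fitted ratio, members farther than 1 SD from 0 in the fit described above kept their sign. Not all of the smaller ratios did: 31 of 449 member values changed sign, while 13 members kept theirs throughout. Acot1 was among those that changed sign: it stood at -0.62 without array 1 but at 0.20 without array 2. The count of members that passed was 0 under all alternatives but 3: 2 at an adjusted p under 0.10 (Acsm3 and Slc16a6, with 5.68% of all genes), and 0 to 3 with 1 array left out. The median of the members was -0.14 with median centring, against -0.05 over all genes there. The count of all genes that passed was 442 without background correction, 80 with Agilent processed signals, 1 with median centring, 450 with the deposited values, 1118 at an adjusted p under 0.10, and 1 to 464 with 1 array left out, against 269. Without array 1, 64.2% of 464 were higher. The count of the other pathway genes was 1 without the dye term, with processed signals, with all 8 channels above background, with a trended robust variance and with the deposited values, 0 with median centring, 5 at an adjusted p under 0.10, and 0 to 1 with 1 array left out, against 2. The cause was not tested, except that fits without an array have fewer samples. With 1 array left out, 1 dye orientation keeps a single array, which is fitted exactly. The residual spread of such a fit comes from the arrays of the other orientation alone. No paired analysis was possible with a further replicate block because each value is already the ratio of an IlrunKO and a WT sample on 1 array. All members were well above background in all 8 channels, but ratios of dim members could depend on how background was handled. With Agilent processed signals Acot2 (mean log2 intensity 6.56) stood at 0.29 instead of 0.12. Acsm2 (7.30) stood at 0.32 instead of 0.21, and Slc16a1 (6.99) at 0.008 instead of 0.011.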
